A study of Sus scrofa with 10 samples.

Results

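Oligodendrocyte precursor cells of the pig medial entorhinal cortex (MEC) were selected on measured values, chosen by their counts of unique molecular identifiers (UMIs), in 10 libraries. Each UMI stands for 1 captured RNA molecule. A cell was a member if PDGFRA, CSPG4, SOX10 and OLIG1 together had at least 3 UMIs and at least 0.05% of its UMIs, if PDGFRA and CSPG4 had at least 1, GPR17 at most 2, COL1A1 and RGS5 together at most 2, and MOG and ERMN none. Of the 28229 deposited cells, 342 (1.21%) were members. Members with 2 or more UMIs of TOP2A and CENPF together, 70 cells (20.5%), are called cycling, and the remaining 272 are called other members. All of these genes chose the cells or split them, so their values are given below as a description only.

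The cells came from the MEC of crossbred pig fetuses (Danish Landrace/Yorkshire sows and Duroc boars) at embryonic day 50 (E50), 60 (E60) and 70 (E70), and from adult pigs. No genotype or treatment was compared. Whole cells were released with papain from fresh tissue in the libraries E50_1 (3 pooled brains by the labels), E60_1 and E60_2 (1 brain each), E60_3 (2 brains), E70_1 (2 brains), E70_2 and E70_3 (1 brain each), where the study's overview gives other numbers for E70_1 and E70_3, and Adult_1 (1 brain), whereas E70_nc and Adult_nc (1 brain each) held sorted nuclei of frozen tissue. Replicates therefore exist for whole cells of E60 and E70 (3 libraries each), every other group is 1 library whose values have no replicate check, and the labels do not say which fetuses were littermates. A level is given in CPM, the UMIs of a gene summed over the members of a library and scaled to a common total.

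Oligodendrocyte precursor cells divide and migrate through the developing brain and turn into the oligodendrocytes that wrap axons in myelin. PDGF-A, released by neighbouring cells, holds them in the dividing state through the receptor PDGFRA, and the proteoglycan CSPG4 (NG2) lies on their surface. On commitment they switch on GPR17, lose PDGFRA and later produce myelin proteins. They persist in the adult cortex, where they receive synaptic input from neurons.

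The libraries differed in ways that bear on the members. The members' median depth lay between 4221 and 9448.5 UMIs in the fetal whole-cell libraries, at 5656.5 in Adult_1, 3439 in E70_nc and 1495 in Adult_nc. E60_1 and E60_2 stood apart by hemoglobin RNA, since HBB, the beta-globin gene of red blood cells, was at 23048 and 13715 CPM in their members and at 143 to 765 CPM in those of the other fetal whole-cell libraries. The same 2 libraries held HBB at 51000 and 60700 CPM in all remaining cells, above the 13800 to 19900 CPM of the others. E70_1 and E70_2, the smallest libraries with 493 and 617 cells, stood apart in a set of genes given with the stage comparison. Of 27777 distinct barcodes 449 occurred in more than 1 library, of which 11 marked a member, and none marked members in both libraries. Of the members, 75 (21.9%) also had at least 3 UMIs of microglial markers or of STMN2, GAD1, GAD2, SLC17A6 and NEUROD6 and are treated as possible doublets, 30 of them among the 77 members of E50_1.

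Members were found in every library. There were 77 of 5506 cells in E50_1 (1.40%, exact 95% confidence interval (CI) 1.11 to 1.74%, Clopper-Pearson), 142 in E60_1 (1.74%), 26 in E60_2 (0.747%), 18 in E60_3 (0.668%), 6 in E70_1 (1.22%), 8 in E70_2 (1.30%) and 53 in E70_3 (1.70%). The lowest shares were in E70_nc, with 2 members (0.233%), Adult_1, with 2 (0.271%), and Adult_nc, with 8 (0.313%). The fetal whole-cell libraries thus gave 330 members and the adult libraries 10. These intervals cover counting error only, and dissociation and capture also set the share of a cell type.

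**Figure D1:**
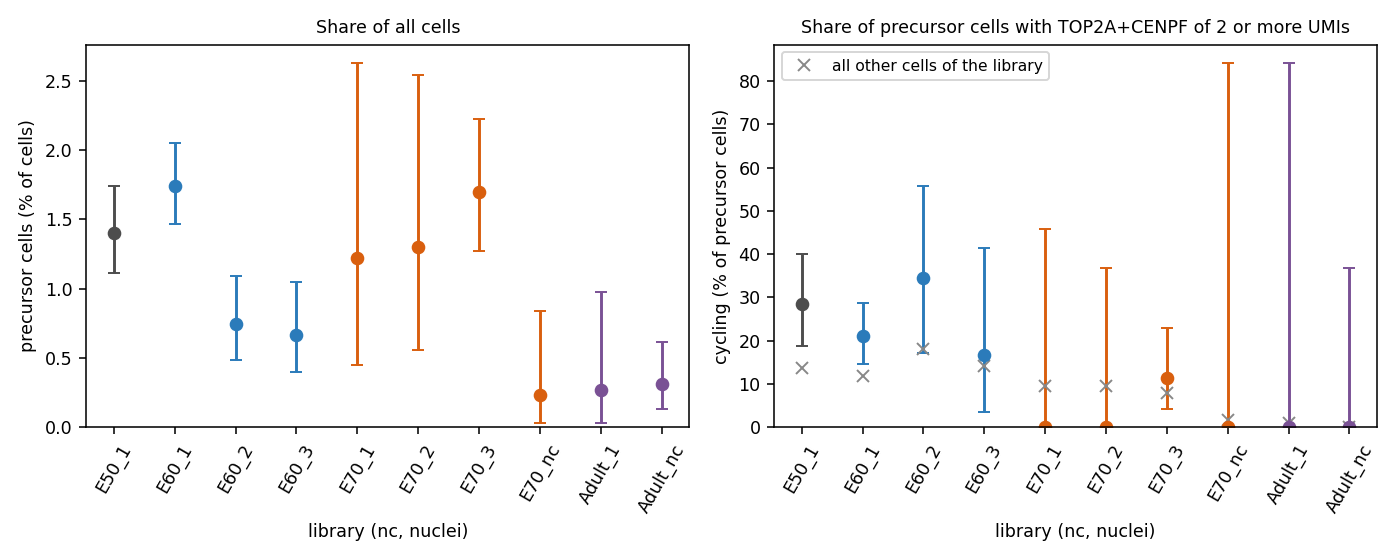
Share of precursor cells among all cells (left, %) and share of cycling cells among the precursor cells (right, %) in the 10 libraries. Points are libraries coloured by stage (grey E50, blue E60, orange E70, purple adult), bars are exact 95% confidence intervals, and crosses give the share of the other cells of the library with 2 or more UMIs of TOP2A and CENPF. The cycling share is 16.7% or more at E50 and E60 and 11.3% or less at E70.

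PDGFRA was found in 87.0% of the fetal whole-cell members, OLIG1 (a transcription factor of the lineage) in 95.2%, SOX10 (a transcription factor of the lineage that later drives myelin genes) in 32.4% and CSPG4 in 29.4%. Both PDGFRA and CSPG4 were seen in 57 members. OLIG1 reached 2129 CPM in E50_1 and 256 to 549 CPM in the members of the 6 E60 and E70 whole-cell libraries, which did not overlap with E50_1. The 4 markers together had a median of 21 UMIs per member in E50_1 and of 3 to 7 in the other libraries. In all, 69 members stood at the floor of exactly 3 UMIs, among them all 8 of Adult_nc, and 53 cells that met every other condition stood just outside with 2. CSPG4 was at 0 UMIs in the members of E70_1, E70_2 and E70_nc, where 3 UMIs would have made 54.1, 36.6 and 436 CPM.

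Among the precursor markers that the rule did not use, several of the most abundant were seen in the members of every fetal whole-cell library, while C1QL1 was at 0 to 18.8 CPM and SOX8 at 12.2 to 54.1 CPM. LHFPL3, a tetraspan membrane protein gene, was at 2065 CPM in E50_1, 2181, 1769 and 3830 CPM in E60_1, E60_2 and E60_3, and 2091, 1588 and 3554 CPM in E70_1, E70_2 and E70_3. The remaining cells of these libraries were between 197 and 370 CPM, so the members were above them in all 7. PTPRZ1, a receptor phosphatase of glial progenitors, was at 1045 to 1686 CPM and MMP16, a membrane-bound matrix metalloproteinase, at 708 to 1811 CPM. XYLT1, which starts the sugar chains of proteoglycans, was at 493 to 1756 CPM with the lowest values in E60_2, E60_1 and E70_2. PCDH15, a protocadherin, was at 664 to 841 CPM in E50_1, E60_1 and E60_2 and at 180 to 353 CPM in E60_3 and the 3 E70 libraries. BCAN, the matrix proteoglycan brevican, had its highest level in E50_1 (443 CPM) and its lowest in E70_1 (54.1 CPM) and E70_2 (36.6 CPM).

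Of the 17 precursor markers outside the rule, 14 passed 50 CPM on average in the 5 libraries with at least 10 members, and 7 of these (LHFPL3, MMP16, SOX6, PCDH15, LUZP2, MEGF11 and XYLT1) were over 2-fold higher than in the remaining cells in each of the 5. Among all 4339 genes over 50 CPM, 85 (1.96%) were. This contrast follows the rule itself, so no test was made. OLIG2, the partner of OLIG1 in the lineage, was at 0.91 CPM in the fetal whole-cell members with a UMI in 0.606% of them, and at 0.36 CPM in the adult cells with MOG and ERMN. OLIG2 was thus near 0 in the whole lineage in these counts, so this defining marker did not bear out the label.

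**Figure D2:**
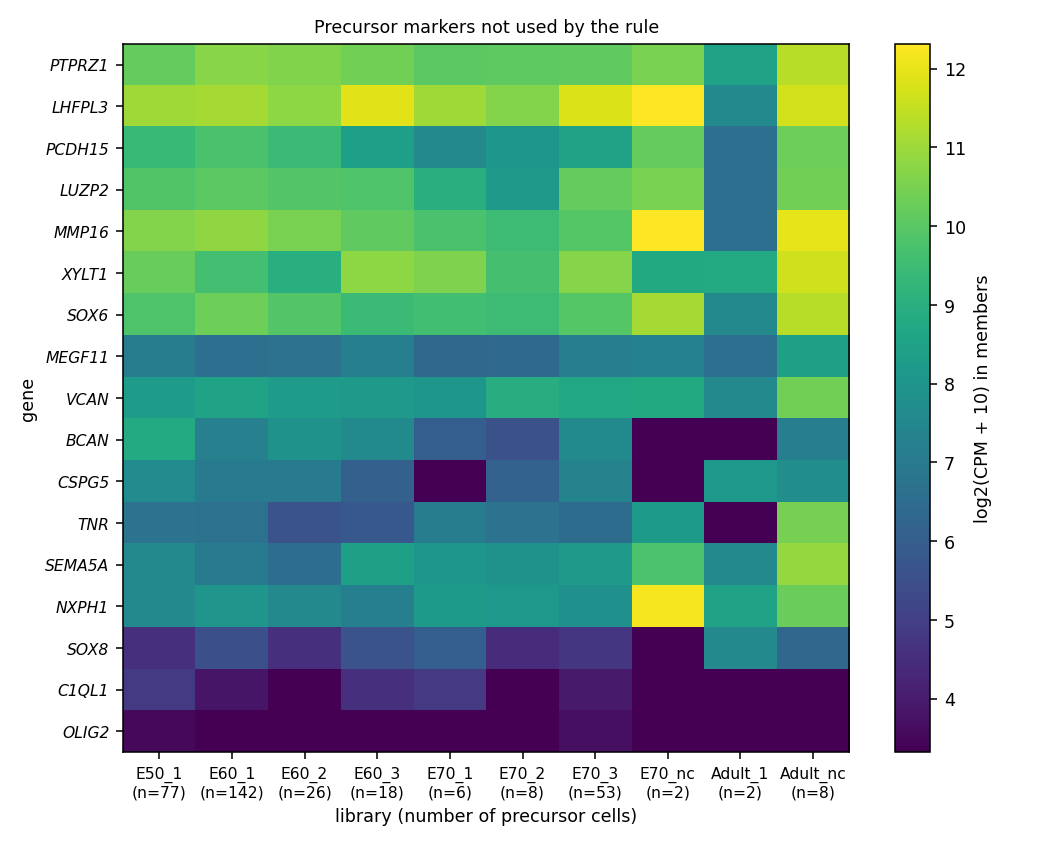
Levels of the 17 precursor markers that the rule did not use, as log2(CPM + 10) over the summed members of each library (columns, with the number of members). LHFPL3, PTPRZ1 and MMP16 are high in all libraries but Adult_1, and OLIG2 is near the bottom of the scale in all 10.

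The share of cells with a UMI was set against microglia, which should lack these genes and in which free RNA gives a background. PCDH15 was seen in 84.2% of the fetal whole-cell members and 8.0% of the microglia, SCRG1 in 73.0% and 6.78%, LHFPL3 in 97.9% and 25.2% and MMP16 in 98.2% and 17.9%, at median depths of 5887 and 5388 UMIs per cell. The members were therefore above the background for each of these genes.

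The 20 genes of largest ratio over the remaining cells, apart from those of the rule, held further membrane and signalling genes. PCDH15 led with a median log2 ratio of 3.61 over the 5 libraries, followed by SCRG1 (3.58), a small secreted protein gene, and CNTN1 (3.47), a contactin of axon and glia contact. CNTN1 was at 1264 to 2128 CPM in the members of the 5 libraries. Other genes were KCND2 (2.60) and KCNIP3 (2.78), a voltage-gated potassium channel and a protein that binds such channels, ITGA9 (2.50), an integrin, NETO1 (2.46), an auxiliary subunit of glutamate receptors, and CD9 (2.43), a tetraspanin. The median over all genes above 50 CPM was 0.13.

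Among the lineage transcription factors, SOX6, which is known to hold precursors back from differentiation, was at 693 to 1266 CPM in the fetal whole-cell members, and its relative SOX5 at 418 to 590 CPM. Of the 13 such genes over 50 CPM, SOX6, ETV1 and ETV5 were over 2-fold higher than in the remaining cells in each of the 5 libraries. This was so for 1.96% of all 4339 genes over 50 CPM. ETV5, which is induced by receptor tyrosine kinase signals, was at 85.5 to 172 CPM. SOX2, a factor of neural progenitors, stood at 473 CPM in E50_1 and at 36.0 to 178 CPM in the other 6. NKX2-2, a factor of the step towards oligodendrocytes, was at 24.4 to 67.8 CPM. MYRF, which switches on myelin genes, was at 2.72 CPM in the pooled fetal whole-cell members.

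In the PDGF pathway the ligand gene PDGFA was at 8.17 CPM in the pooled fetal whole-cell members. PDGFC, another ligand, was at 18.0 to 191 CPM. Downstream, the Src-family kinase FYN was at 201 to 523 CPM and the regulatory subunit PIK3R1 at 162 to 391 CPM. The cyclin gene CCND1, a target of growth factor signals that drives entry into S phase, was at 307 CPM in E50_1, 227 CPM in E60_3 and 160 CPM in E70_3 but at no more than 78.9 CPM in E60_1, E60_2, E70_1 and E70_2. In the remaining cells of E60_3 and E70_3 it was at 22.1 and 12.8 CPM. None of the 14 pathway genes over 50 CPM was over 2-fold higher than in the remaining cells in each of the 5 libraries. The share over all genes above 50 CPM was 1.96%.

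Of other receptors, NTRK2, the receptor of the growth factor BDNF, was at 403 to 784 CPM and ERBB4, a neuregulin receptor, at 188 to 794 CPM. EGFR, the receptor of epidermal growth factor, was at 80.8 to 293 CPM. NTRK3, the receptor of neurotrophin 3, was over 2-fold higher than in the remaining cells in each of the 5 libraries. It was the only one of the 11 receptor genes over 50 CPM to be so, beside 1.96% of all genes over 50 CPM. Genes of glutamate receptors were also present. GRM5, a metabotropic receptor, was at 322 to 847 CPM. GRIA4, an AMPA receptor subunit, was at 585 to 673 CPM in E50_1, E60_1 and E60_2 and at 159 to 389 CPM in E60_3, E70_1, E70_2 and E70_3. GRIA2, the AMPA receptor subunit that limits calcium entry, was at 232 to 622 CPM. Among 17 transmitter receptor and channel genes over 50 CPM, GRIK3, a kainate receptor subunit, and KCND2 were over 2-fold higher in each of the 5 libraries. Here too the share over all genes above 50 CPM was 1.96%.

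Of the signals that guide the choice of fate, the Notch ligand DLL3 was at 19.4 to 92.0 CPM in the fetal whole-cell members and 2.07 to 18.3 CPM in the remaining cells. It was the only one of 5 Notch, Wnt and BMP genes over 50 CPM that was over 2-fold higher in each of the 5 libraries. Over all genes above 50 CPM the share was 1.96%. LEF1, a factor that carries Wnt signals, was at 204 CPM in E60_2 and at 0 to 36.0 CPM in the other 6 libraries, and NKD1, a feedback inhibitor of the Wnt pathway, at 151 CPM in E60_2 and 25.9 to 80.0 CPM in the others. In the remaining cells of E60_2 LEF1 was at 603 CPM and ESAM, an endothelial gene, at 132 CPM, while ESAM was at 39.4 CPM in the members of E60_2 and at 0 to 1.42 CPM in those of the other 6 libraries. The part of endothelial RNA in the LEF1 level was not tested.

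The rule allowed up to 2 UMIs of GPR17, the receptor of committed precursors, and the members were set beside 195 fetal whole cells with 3 or more, neither MOG nor ERMN, and no place among the members. In these committed precursors BCAS1, a gene of newly forming oligodendrocytes, was at 2035 CPM pooled, against 157 CPM in the members. FYN was at 1471 against 297 CPM, TCF7L2 at 582 against 198 CPM and NKX2-2 at 164 against 52.2 CPM, all pooled. By library none of these genes had a single order. TCF7L2 was lower in the committed precursors of E70_2 (140 CPM) and E60_3, and NKX2-2 in those of E70_3 (32.9 CPM). BCAS1 and FYN were lower in the single committed precursor of E60_3. MBP (myelin basic protein) was at 4188 and 3293 CPM in the committed precursors of E60_1 and E60_2, 747 CPM in those of E50_1, 181 CPM in those of E70_3 and 298 CPM in the 4 of E70_2, while the members were at 29.8 CPM or less in each library. In the single committed precursor of E60_3 it had no UMI. UGT8, which makes a myelin lipid, was at 148 to 520 CPM in the committed precursors of E50_1, E60_1, E60_2 and E70_3 and at 46.9 to 65.2 CPM in the members of these libraries. CNP, at 527 against 58.5 CPM pooled, was higher in the committed precursors of each library but E70_3, with 32.9 against 69.0 CPM there. The members held more PDGFRA, with 294 against 106 CPM pooled, which the rule fixes in part, since members needed a UMI of PDGFRA or CSPG4 and the committed precursors did not. MMP16, at 1464 against 1143 CPM pooled, had no single order, with 985 against 1642 CPM in E70_3 and 1811 against 867 CPM in E60_1. E60_1 gave 142 of the 330 members and 103 of the 195 committed precursors, and no test was made since GPR17 and the other genes of the rule chose the sets. Several leading genes of the members were as high or higher in the committed precursors, so they marked both. SCRG1 was at 684 CPM in these against 469 CPM in the members, PCDH15 at 703 against 621 CPM, SNX22 at 549 against 223 CPM and SOX6 at 1656 against 1012 CPM, all pooled. Of these, SOX6 was higher in the committed precursors of each of the 6 libraries, while PCDH15 was lower in E60_1 and SCRG1 and SNX22 in the single cell of E60_3. CNTN1 and LHFPL3 had no single order, with LHFPL3 at 1209 against 2181 CPM in E60_1 and 2244 against 2065 CPM in E50_1, and CNTN1 at 720 against 2128 CPM in E60_1 and 1692 against 1611 CPM in E70_3. Of the 19 myelin genes, CD9, which is not limited to myelin, was at 183 to 568 CPM in the members. CD9 and UGT8, of 6 myelin genes over 50 CPM, were over 2-fold higher in the members than in the remaining cells in each of the 5 libraries. So were BCAS1 and KANK1, of 9 committed precursor genes over 50 CPM, beside 1.96% of all genes over 50 CPM.

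Markers of other cell types were looked up for the whole lists. The summed level of the 8 microglial markers was 12.2 to 90.1 CPM in the members of E50_1, E60_3, E70_1, E70_2 and E70_3, with C1QA at 4.33 CPM or less, but 652 CPM in E60_1 and 796 CPM in E60_2, where all 8 were detected, against 10920 and 10648 CPM in the microglia of these libraries. The 10 neuronal markers summed to 396 to 828 CPM in the E60 and E70 whole-cell members and 1251 CPM in E50_1, below the remaining cells of the same library in all but E60_2 (644 against 489 CPM). Of these, SLC17A7 was at 0 to 2.89 CPM, while STMN2 and SYT1 had 407 and 205 UMIs in the members of E50_1. In those of E60_1 they had 221 and 228 UMIs. AQP4, the water channel of astrocytes, was at 744 CPM in E60_1 and 362 CPM in E60_2 and at 0 to 54.8 CPM in the other 5. FABP7, a fatty acid binding protein of radial glia, was at 1538 to 2712 CPM in all 7. The 9 markers of astrocytes and radial glia summed to 2073 to 4432 CPM, above the remaining cells of the library in all 7. Fibroblast markers summed to 6.48 to 72.3 CPM and mural markers to 6.57 to 90.1 CPM.

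Cycling members were 22 of 77 in E50_1 (28.6%), 30 of 142 in E60_1 (21.1%), 9 of 26 in E60_2 (34.6%), 3 of 18 in E60_3 (16.7%) and 6 of 53 in E70_3 (11.3%, CI 4.27 to 23.0%). There were none among the 6 members of E70_1 and the 8 of E70_2, where a count of 0 allows up to 3 cells, and none in E70_nc, Adult_1 and Adult_nc. In the remaining cells the share was 7.83 to 18.2% in the fetal whole-cell libraries. Neurons, taken as cells with at least 10 UMIs of STMN2 and expected to be past division, gave 3.91 to 13.1% at median depths of 4968 to 11864 UMIs. In each library with cycling members their share was above that of its neurons, with 28.6 against 7.00% in E50_1, 21.1 against 4.19% in E60_1, 34.6 against 9.21% in E60_2, 16.7 against 9.24% in E60_3 and 11.3 against 3.91% in E70_3. In E70_1 and E70_2, with no cycling members, the neurons were at 13.1 and 8.45%. The shares of microglia, a cell type that can divide, were 8.97 to 14.1% in the other libraries with cycling members and 19.2% in E60_3, above the 16.7% of its members (CI 3.58 to 41.4%).

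In the cycling members genes of the G2 and M phases were far higher than in the other members. They could be compared in E50_1 and E60_1, which had at least 10 cells of each kind, and TOP2A and CENPF were left out. Of 43 genes of the G2/M list over 50 CPM, 40 were over 2-fold higher in both libraries, with a median log2 ratio of CPM + 10 of 3.06 (3.24 in E50_1 and 2.95 in E60_1). Of 26 S phase genes, 9 were, with a median of 1.06. Over all 5173 genes, 194 (3.75%) were over 2-fold higher and 15 (0.290%) over 2-fold lower in both, and the median was -0.02. The split used 2 genes of the same program, so these counts describe the split and are no test of it.

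UBE2C, which marks mitotic cyclins for destruction, was at 830 CPM in the cycling members of E50_1 and 1340 CPM in those of E60_1, and at 22.2 and 33.5 CPM in the other members. CCNB1, the cyclin of mitosis, was at 256 and 535 CPM against 8.87 and 5.58 CPM, and its kinase CDK1 at 219 and 524 CPM against 2.22 and 22.3 CPM. Next in the order of the ratio were PIMREG, a regulator of mitosis, DLGAP5 and CKAP2, which act on the mitotic spindle, CDC20, an activator of the anaphase-promoting complex, TPX2, a spindle assembly factor, CDCA3 and PBK, a mitotic kinase, with median log2 ratios of 3.99 to 4.38. In S phase PCNA, the sliding clamp of DNA replication, was at 488 and 654 CPM against 120 and 251 CPM. No gene of the precursor markers (14 genes), lineage transcription factors (14), PDGF pathway (15) or myelin genes (6) was over 2-fold higher or lower in both libraries. At the low end stood PCP4, a calmodulin regulator, with 12.4 and 11.9 CPM in the cycling and 37.7 and 98.7 CPM in the other members, and SNX22, a sorting nexin, with 99.2 and 101 against 235 and 339 CPM.

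**Figure D3:**
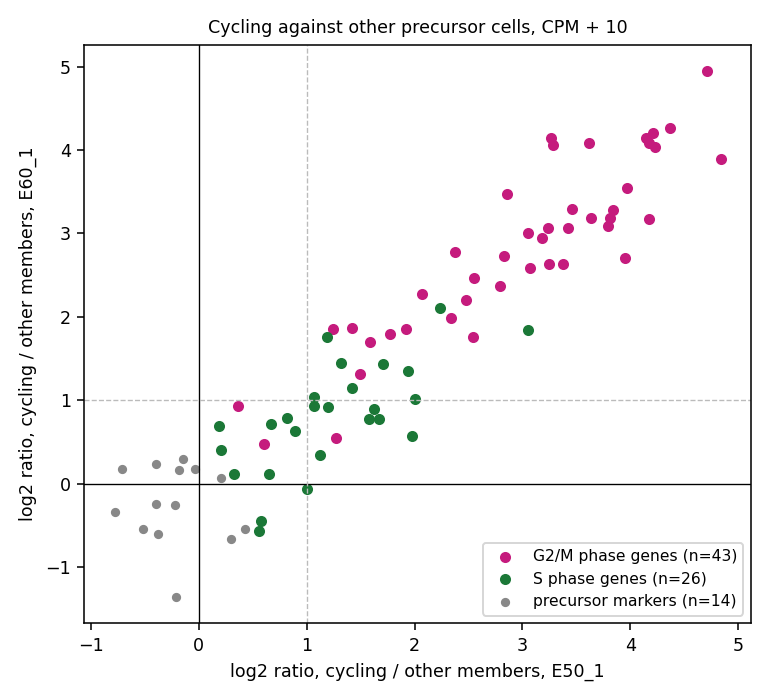
log2 ratio of CPM + 10 between cycling and other members in E50_1 (x axis) and E60_1 (y axis). Each point is a gene of the G2/M list (magenta), the S phase list (green) or the precursor markers (grey), and dashed lines mark a 2-fold ratio. The G2/M genes reach a median log2 ratio of 4.83 (UBE2C), while the 14 precursor markers lie below 1 in both.

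Genes of the G2/M program are known to share promoter elements, the cell cycle genes homology region (CHR, TTTGAA) and the CCAAT box, and the genes above were high together. So the 250 bases before the gene start were read from the RefSeq annotation of Sscrofa11.1 for the 10 genes named by their ratio, all of which were matched. The 4 genes of largest ratio whose window held no annotated exon are printed, 5′ to 3′ on the strand of the gene, with matches to TTTGAA or CCAAT on either strand in capitals (the 2 motifs do not overlap in sequence). UBE2C lies on the plus strand at chr17:48018153-48018402, CCNB1 on the plus strand at chr16:47337989-47338238, DLGAP5 on the minus strand at chr1:184550029-184550278 and CKAP2 on the plus strand at chr11:15751467-15751716.
UBE2C: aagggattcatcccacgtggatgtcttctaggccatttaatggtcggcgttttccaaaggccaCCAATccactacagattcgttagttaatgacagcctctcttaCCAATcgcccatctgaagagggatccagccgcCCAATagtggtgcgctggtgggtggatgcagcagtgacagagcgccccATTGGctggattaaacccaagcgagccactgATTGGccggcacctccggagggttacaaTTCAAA
CCNB1: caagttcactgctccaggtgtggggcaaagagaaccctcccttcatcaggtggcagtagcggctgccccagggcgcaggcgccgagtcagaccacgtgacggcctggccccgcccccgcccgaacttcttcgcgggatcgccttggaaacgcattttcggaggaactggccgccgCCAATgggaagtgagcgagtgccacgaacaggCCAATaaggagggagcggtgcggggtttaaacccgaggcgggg
DLGAP5: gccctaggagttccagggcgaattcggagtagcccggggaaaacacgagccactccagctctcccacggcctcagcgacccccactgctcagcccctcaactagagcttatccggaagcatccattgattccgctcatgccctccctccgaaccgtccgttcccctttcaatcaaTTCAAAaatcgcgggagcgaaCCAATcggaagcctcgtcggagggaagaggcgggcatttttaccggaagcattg
CKAP2: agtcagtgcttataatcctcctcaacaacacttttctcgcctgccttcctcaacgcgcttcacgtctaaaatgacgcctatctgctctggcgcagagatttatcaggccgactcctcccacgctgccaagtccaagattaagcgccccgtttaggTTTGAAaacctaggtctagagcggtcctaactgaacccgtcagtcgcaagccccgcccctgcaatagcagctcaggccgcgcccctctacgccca
UBE2C had 5 CCAAT matches and 1 match to TTTGAA that ended at the base before the start, CCNB1 2 CCAAT matches, DLGAP5 1 match to each and CKAP2 1 to TTTGAA. TPX2 and PBK, the other genes with no exon in the window, held neither. Of the 40 G2/M genes over 2-fold higher in both libraries 39 had a window, of which 13 (33.3%) held TTTGAA, 22 (56.4%) CCAAT and 9 (23.1%) both. Among 19259 protein-coding genes on the chromosomes 12.5%, 31.9% and 4.20% did. A match to these letters is a description of the window and not evidence of binding.

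Whether the precursor cells changed from E60 to E70 could be tested over the 3 whole-cell libraries of each stage. Their share of all cells was 1.05% ± 0.596 (SD, n = 3) at E60 and 1.40% ± 0.258 at E70, a difference of 0.353 percentage points within the spread of the libraries (exact permutation test, two-sided, p = 0.4, Benjamini-Hochberg adjusted p = 0.4 over 2 tests). The cycling share was 24.1% ± 9.35 at E60 and 3.77% ± 6.54 at E70 (SD, n = 3). The 3 E60 libraries were above the 3 E70 libraries without overlap. The exact permutation p of 0.1 (adjusted p = 0.2) is the smallest that 3 against 3 libraries can give, so it cannot pass 0.05. TOP2A and CENPF also made the split, so this p is a description and decides nothing. The 0% of E70_1 and E70_2 rested on 6 and 8 members, with exact CIs up to 45.9 and 36.9%. By the summed level of the G2/M list the stages overlapped, with 4673, 5615 and 3325 CPM at E60 and 919, 940 and 3711 CPM at E70 (exact permutation p = 0.2).

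Depth moved with the cycling calls in 3 of the 5 libraries that had them. The median depth of cycling members was 10830.5 against 7671 UMIs for the other members in E50_1, 14099 against 7317 in E60_3 and 12670.5 against 5963 in E70_3. The gap was small in E60_1 (4650.5 against 4129) and E60_2 (5467 against 5282), which held 39 of the 70 cycling members. When each member was drawn down to 1000 UMIs after the choice, the cycling shares were 10.6, 23.1 and 5.56% at E60 and 0, 0 and 11.3% at E70, which overlapped (exact permutation p = 0.3). Less the share of the remaining cells of the same library, the difference was -14.6 percentage points (exact permutation p = 0.2). The sequencing pools of the study's overview held E60_3 with E70_3 and E60_1 with E70_1, and the cycling shares were 16.7 and 11.3% within the former and 21.1 and 0% within the latter. Only E70_3 carried cycling members at E70, and it had 53 of the 67 whole-cell members of that stage.

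For expression, a library needed at least 10 members by the design, which a single E70 library reached. The fit was therefore made with at least 5, a limit set after the number of members was seen, so that E70_1 entered with 6 and E70_2 with 8 members. The edgeR quasi-likelihood test called 0 of 3435 genes between E60 and E70 at an adjusted p below 0.05 (0%), and 478 genes (13.9%) had an unadjusted p below 0.05, of which 287 were higher at E70. With the replicate number as a block, edgeR called 2 genes, 1 higher and 1 lower at E70. DESeq2 on the same genes called 107, of which 102 were higher at E70. The count depended on 2 libraries, since edgeR called 570 genes, 464 of them higher at E70, without E70_3, and 30 without E60_3. Without overlap between the stages, 246 genes (7.16%) were higher and 453 (13.2%) lower at E70 in CPM.

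The gene of smallest p was MGST1, a membrane-bound glutathione transferase gene. It was at 207, 276 and 84.2 CPM in the members at E60 and 18.0, 12.2 and 2.76 CPM at E70, each of the latter from 1 UMI (log2 fold change -4.70 ± 0.77 (SE), adjusted p = 0.0721, edgeR). Its log2 fold change in the remaining cells was -2.01. Astroglia and microglia held it at 614 and 474 CPM against 96.2 CPM in the pooled fetal whole-cell members, and the microglial markers and AQP4 were highest in E60_1 and E60_2 among the members of the fetal whole-cell libraries. The part of these cell types in the difference was not tested.

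Many genes that were higher at E70 were higher in the remaining cells as well. CCBE1, which codes for a secreted protein of lymphatic growth and was named after its values were seen, was at 1560, 1210 and 2560 CPM in the members at E60 and 16800, 14100 and 4530 CPM at E70, with a log2 fold change of 2.94 ± 0.50 (SE, adjusted p = 0.0721, edgeR). In the remaining cells its log2 fold change was 2.85. OTC, a urea cycle enzyme gene, had 2.68 in the members and 2.57 in the remaining cells, and PIP5K1B, a lipid kinase gene, 3.53 and 3.39. Of 61 genes over 4-fold higher at E70 without overlap in the members, 60 were over 2-fold higher at E70 in the remaining cells too. Of the 107 DESeq2 calls 105 differed over 2-fold the same way there. The share of all genes that did so was not counted. Over all 3435 genes tested, the log2 fold changes of members and remaining cells had a correlation of 0.787. E70_1 and E70_2 had the high values of CCBE1, OTC and PIP5K1B, so these 2 libraries moved with the stage in members and remaining cells.

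Relative to the remaining cells of the same library, edgeR called 0 of 3435 genes (0%), with 281 at an unadjusted p below 0.05. The smallest adjusted p was 0.0657, for INPP4B, a phosphoinositide phosphatase gene, and ZBTB18, a transcriptional repressor gene. INPP4B was at 35.4, 26.3 and 32.4 CPM in the members at E60 and 451, 537 and 69.0 CPM at E70. Its relative log2 fold change was 2.32, with 3.53 in the members and 1.4 in the remaining cells. ZBTB18 was at 78.0, 105 and 97.2 CPM at E60 and 36.0, 61.1 and 38.6 CPM at E70. Its relative log2 fold change was -2.37, with -0.94 in the members (adjusted p = 0.358, edgeR) and 1.53 in the remaining cells. The larger part of its relative change thus lay in the remaining cells. The stages did not overlap for either gene, but neither passed.

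**Figure D4:**
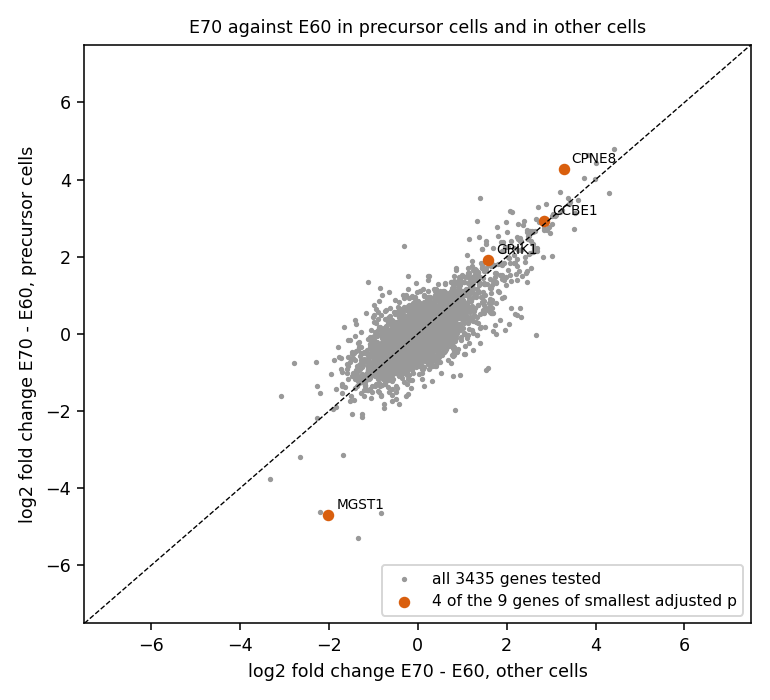
log2 fold change from E60 to E70 (positive, higher at E70) in the remaining cells (x axis) and in the precursor cells (y axis) for the 3435 genes tested, with 4 of the 9 genes of smallest adjusted p named. The dashed line marks equal change. CCBE1 lies close to it at 2.85 and 2.94, while MGST1 falls below it at -2.01 and -4.70.

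Genes that respond quickly to stress varied between libraries of 1 stage. FOS, an immediate early gene, was at 332 CPM in E50_1, 25.5, 92.1 and 1005 CPM in E60_1, E60_2 and E60_3, and 360, 97.7 and 1217 CPM in E70_1, E70_2 and E70_3, so the stages overlapped. None of the 7 stress and immediate early genes tested was without overlap (median log2 fold change 0.04), beside 7.16% higher and 13.2% lower over all genes tested.

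None of the listed genes passed the edgeR test in either direction. Of the 14 precursor markers tested, MMP16 and PTPRZ1 were lower at E70 without overlap and none was higher, beside 13.2% lower and 7.16% higher over all genes tested, so the count was near the background. The median log2 fold change was 0.01, beside -0.01 over all genes. MMP16 was at 1811, 1453 and 1095 CPM at E60 and 847, 708 and 985 CPM at E70 (log2 fold change -0.62 ± 0.29 (SE), adjusted p = 0.386, edgeR). Of 11 PDGF pathway genes PDGFC, GRB2 and NCK1 were lower without overlap, beside 13.2% of all genes (median -0.11). GRB2, the adaptor that links growth factor receptors to RAS, was at 166, 184 and 207 CPM at E60 and 72.1, 36.6 and 155 CPM at E70 (adjusted p = 0.451, edgeR). FGFR1, a fibroblast growth factor receptor, was the 1 of 9 receptor genes that did not overlap, and was lower at E70 (adjusted p = 0.451, edgeR). None of 13 lineage transcription factors, 9 committed precursor genes and 4 myelin genes tested was without overlap.

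Of 16 transmitter receptor and channel genes, GRIA1, GRIK1 and GRIK3 were higher and GRM7 lower at E70 without overlap, beside 7.16% higher and 13.2% lower over all genes. GRIK1, a kainate receptor subunit, was at 78.0, 105 and 104 CPM at E60 and 378, 330 and 262 CPM at E70 (log2 fold change 1.92 ± 0.35 (SE), adjusted p = 0.0721, edgeR), and its log2 fold change in the remaining cells was 1.59. It was among the 4 listed genes that DESeq2 called, with STMN2, HBB and PAX2, beside 107 of the 3435 genes tested. STMN2, a microtubule gene of young neurons, was at 313, 263 and 162 CPM in the members at E60 and 54.1, 73.3 and 52.4 CPM at E70. Of the matrix and adhesion genes PTPRZ1, MMP16 and ITGB8 were lower without overlap, and among 8 cholesterol synthesis genes HMGCS1 and IDI1. HMGCS1, the enzyme that makes HMG-CoA, was at 342, 178 and 266 CPM at E60 and 18.0, 122 and 171 CPM at E70 (adjusted p = 0.371, edgeR).

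Of 19 G2/M genes tested, BIRC5, TPX2, CKS1B, CKAP2 and DLGAP5 were lower at E70 without overlap and none was higher, beside 13.2% lower and 7.16% higher over all genes, with a median log2 fold change of -0.88. BIRC5, a subunit of the complex that corrects spindle attachment, was at 125, 105 and 71.3 CPM at E60 and 18.0, 0 and 63.5 CPM at E70 (log2 fold change -1.25 ± 0.56 (SE), adjusted p = 0.357, edgeR). Within the pools the list's median log2 ratio of CPM + 10 was 0.15 from E60_3 to E70_3 and -2.27 from E60_1 to E70_1. It was thus below 0 in the latter pool alone. The medians over all genes tested were -0.01 and -0.26. The ratio of the latter pool rested on the 6 members of E70_1, where 3 UMIs made 54.1 CPM. Of 11 S phase genes, ATAD2 and RFC2 were lower and POLA1 higher, with a median of -0.29.

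Genes that mark position along the brain differed between the libraries of 1 stage. EMX2, a gene of the dorsal forebrain, was at 38.9 CPM in the members of E60_3, 18.0 CPM in E70_1 and 55.2 CPM in E70_3, but at 0 in E60_1 and E60_2, where 3 UMIs would have made 4.25 and 19.7 CPM. LHX2, a selector gene of the cortex, was at 58.3 CPM in E60_3, 18.0, 61.1 and 44.1 CPM in E70_1, E70_2 and E70_3, 17.3 CPM in E50_1, 1.42 CPM in E60_1 and 0 in E60_2. EMX2 was at 0 in E70_2 as well, where 3 UMIs would have made 36.6 CPM. In the members LHX2 rested on 1 UMI in each of E60_1 and E70_1. The 0 of E60_2, where 3 UMIs would have made 19.7 CPM, cannot be ranked below E50_1 or E70_1. In the remaining cells LHX2 was at 3.57 and 1.90 CPM in E60_1 and E60_2 and 41.1 to 93.8 CPM in the other 5, so these 2 libraries were lowest there. The rest of the forebrain list did not share this order. NR2F1, the most abundant gene of the list, was at 78.9 CPM in E60_2 and somewhat above that in E60_1, at 240 CPM in E60_3, 36.0 CPM in E70_1 and 210 CPM in E70_3, and SIX3 was seen in E50_1 and E60_1 alone. The 8 genes together were at 105 and 78.9 CPM in E60_1 and E60_2, above the 72.1 CPM of E70_1 and below the 134 to 337 CPM of the other 4.

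Genes of the midbrain and hindbrain went the other way in part. EN2 was at 24.5 CPM in the members of E50_1 and 41.1 CPM in E60_1 and at 0 in the other 5, and in the remaining cells of E50_1, E60_1 and E60_2 it was at 24.1, 37.3 and 14.1 CPM. PAX3 and PAX7 mark the dorsal neural tube and midbrain. PAX3 was at 131 CPM and PAX7 at 39.4 CPM in the members of E60_2, against 0 to 8.28 and 2.76 to 18.0 CPM in the other 6. OTX2, of the forebrain and midbrain, was at 7.22, 7.09 and 19.7 CPM in E50_1, E60_1 and E60_2 and at 0 in the other 4. PAX2, of the boundary between midbrain and hindbrain, was at 252 and 391 CPM in E70_1 and E70_2 and at 5.67 to 69.0 CPM in the other 5, and in the remaining cells of E70_1 and E70_2 it was at 352 and 334 CPM. Of the HOX genes, which mark the hindbrain and spinal cord, HOXA3 had 6 UMIs in the members of E50_1 (8.66 CPM) and 1 each in E70_2 and E70_3, HOXB2 had 1 UMI in E50_1, and HOXA2, HOXB3, HOXA4 and HOXB4 had none. The stage comparison above includes E60_1 and E60_2, and the part of position in it was not tested.

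**Figure D5:**
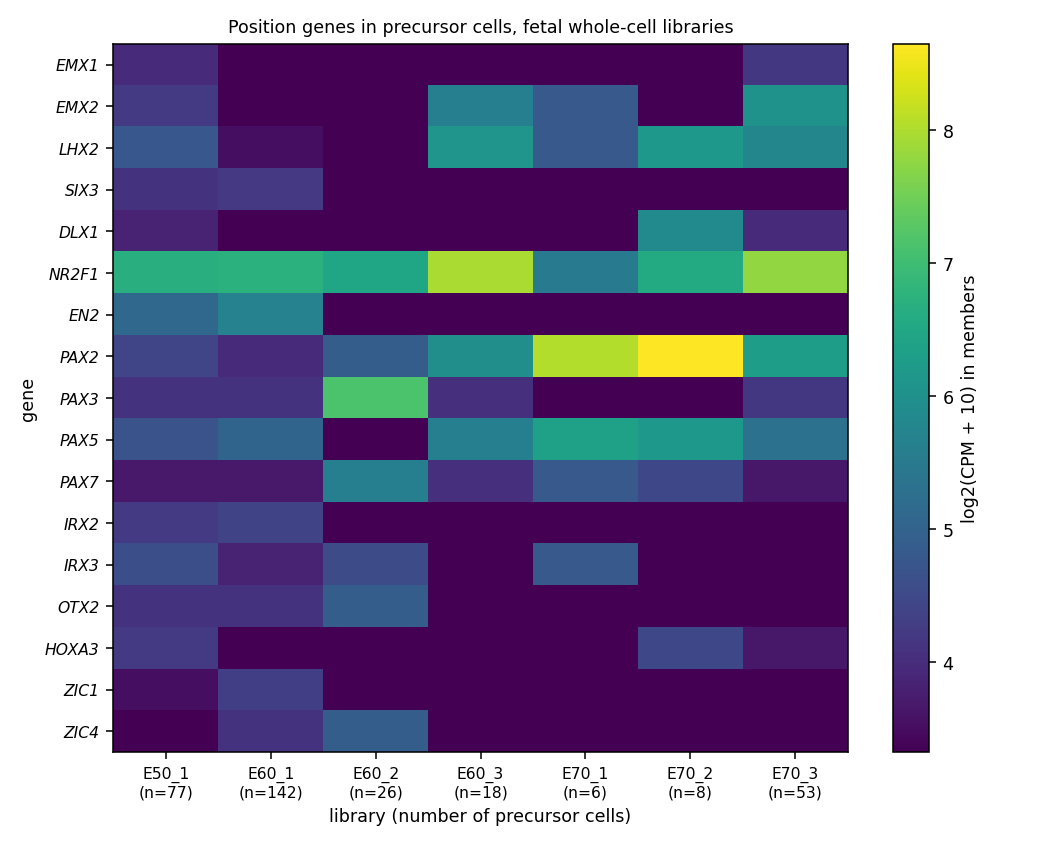
Levels of position genes of the forebrain (EMX1 to NR2F1) and of more caudal regions (EN2 to ZIC4) with a UMI in the members of at least 2 libraries, in the members of the 7 fetal whole-cell libraries, as log2(CPM + 10), with the number of members. EMX2 is highest in E70_3 (55.2 CPM) and LHX2 in E70_2 (61.1 CPM), EN2 is seen in E50_1 and E60_1, and PAX3 is highest in E60_2 at 131 CPM.

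The adult members were few, and no adult library reached the 10 members needed for a test. In Adult_nc 25 more cells stood just outside the rule with 2 UMIs. The 8 members of Adult_nc, with 14829 UMIs in all, had LHFPL3 at 3300 CPM (95% exact Poisson CI 2440 to 4370), MMP16 at 4050 CPM (3090 to 5210), XYLT1 at 3240 CPM (2390 to 4290) and PTPRZ1 at 2630 CPM. TNR, the matrix glycoprotein tenascin-R, was at 1420 CPM (877 to 2160) against 86.2 CPM (74.4 to 99.4) in the pooled fetal whole-cell members and 291 CPM (35.2 to 1050) in the 2 E70 nuclei. SEMA5A, an axon guidance gene, was at 1888 CPM in Adult_nc, 872 CPM (320.0 to 1900) in the 2 E70 nuclei and 85.5 to 337 CPM in the fetal whole cells. Glutamate receptor genes were also present, with GRIA4 at 2160 CPM (1480 to 3050) and GRM7 at 1690 CPM (1090 to 2490). Adult nuclei and fetal whole cells differ in age and in preparation, which cannot be told apart in this comparison.

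The 2 members of Adult_1 were unlike these nuclei. Their microglial markers summed to 8486 CPM, against 12680 CPM in the microglia of that library, with C1QB at 3271 CPM, and MBP was at 1860 CPM (1150 to 2840). LHFPL3 was at 177 CPM (21.4 to 639) and MMP16 at 88.4 CPM (2.24 to 492), both below every fetal library. In Adult_nc MBP had no UMI in the members, and its CI reached 249 CPM. The values of these cells went against the label. Their 17 precursor markers outside the rule summed to 2652 CPM, against 25086 CPM in Adult_nc.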

How the data were processed

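The authors deposited 1 table of UMI counts per library (10x Genomics version 2 chemistry, Cell Ranger, genome Sscrofa11.1, introns included), with whole-number counts for 22452 genes before any normalization; the submitters' processing notes give the Cell Ranger version as 2.20. Library totals ran from 2336865 to 55755512 UMIs. All 10 tables were used, and no column was left unmapped. Members and comparison cells were taken by UMI thresholds, without clustering. The members, gene lists and rules were chosen with earlier results of these data known. No doublet caller was run, and possible doublets were left out in an alternative. Levels are CPM of summed UMIs, and ratios used CPM + 10. Sums per library were tested with edgeR 4.0.16 (TMM, filterByExpr, quasi-likelihood, Benjamini-Hochberg) and DESeq2 1.42.0 as the alternative, and shares with exact permutation tests (scipy 1.17.1). The edgeR step was first tested on simulated data. There it recovered 4.62% of 2-fold, 85.3% of 4-fold and 98.5% of 8-fold changes, with 6 false calls among 133. Most 2-fold changes were missed, so the 0 genes called between E60 and E70 cannot speak to changes of that size. p-values measure the spread between libraries. Same-numbered libraries were not paired by the labels, and the correlations of their deviations from the stage means were -0.0130, 0.0736 and 0.0264. Named genes were the genes of the rule, up to 4 of each list by level, the 10 largest ratios in each direction of the cycling split, and the 20 leading genes over the remaining cells; genes that a test placed first were named after their values were seen. MKI67 was not analysed here, and some results are not reported here. No test of adult against fetal members was made, since no adult library had 10 members.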

Additional observations from a re-analysis of the deposited data

How the results depend on the processing

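The E60 to E70 expression count moved most: 0 genes in edgeR, and also with RLE size factors, without possible doublets, but 107 in DESeq2, 394 with no filter on low counts (16127 genes), 9 in members below 2 UMIs of TOP2A and CENPF, 22 at a floor of 5 UMIs and between 0 and 570 when 1 library was left out (570 without E70_3 and 30 without E60_3). With the replicate number as a block it was 2 genes, and the labels do not say that a number marks a batch (numbers 1 and 3 shared a sequencing pool across stages, number 2 did not). The cause was not tested. Without E60_1 and E60_2, or without E70_1 and E70_2, 1 stage kept a single library, assumed to vary like the other stage, and the 0 genes called there say nothing about stability. The difference in the share of members stayed positive, with 0.162 (without E60_3) to 0.697 (without E60_1) percentage points when 1 library was left out and 0.0642 with cells thinned to 1000 UMIs, where the shares were 0.0681% and 0.132%, and that in the cycling share negative, with -24.1 to -15.1, -13.2 without possible doublets and -29.3 at a floor of 5 UMIs. Exact permutation within pairs of the same replicate number (block) gave p = 0.5 and p = 0.25. The median log2 ratio of the G2/M list was 3.87 with CPM + 1 and 2.95 to 3.24 when 1 library was left out. The cycling share less that of the remaining cells, the fit relative to the remaining cells, the limit of 5 members, the thinning of members after the choice and the fit without E70_1 and E70_2 were chosen after seeing the data. The fit with at least 20 members, the cycling share among cells thinned before the choice (a library had no member left), the share with MKI67 and the adult alternatives were not run. With 6 and 8 members in E70_1 and E70_2, 3 UMIs made 54.1 and 36.6 CPM, so lower levels were not detectable there.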
